A study of Mus musculus with 23 samples.

Results

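The comparison is of the DNA methylation of 2 tissues of the wild type mouse embryo at embryonic day 6.5 (E6.5), the epiblast and the extra-embryonic ectoderm (ExE). It rests on the 10 wild type samples of that age among the 23 of the series, 6 of epiblast and 4 of ExE, and on the 250886 autosomal windows that had a value in each of the 10, of 333984 windows in the table. A window is a stretch that the deposited table names as 100 CpG sites, and its value is the percentage of CpG sites read as methylated in that sample. In the reference genome (GRCm38) the windows held a median of 59 CpG dinucleotides, from 50 in windows under 1 kb to 74 in windows of 14 kb or more. Their lengths differ far more than that, so a short window lies in CpG-rich sequence and a long window in CpG-poor sequence.

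The embryos were hybrids of C57BL6/Babr and CAST/Ei mice from natural matings in both directions. In B6/CAST the mother was C57BL6/Babr and in CAST/B6 the mother was CAST/Ei. Each cross gave 3 samples of epiblast, each a pool of tissue from 4 embryos, and 2 samples of ExE, each a pool from 8 embryos, separated by hand. One B6/CAST epiblast sample could not be tied to a replicate number and is called unnumbered here. The DNA was a part of MNase-digested chromatin that was set aside before immunoprecipitation and sequenced by post-bisulphite adaptor tagging (PBAT), a bisulphite method for small inputs that adds adaptors after conversion. The E6.5 values used here are not split by parental allele. For comparison, 4 epiblast and 4 ExE samples of the same crosses at E7.5, each from 1 embryo, were read from a separate table.

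The epiblast gives rise to the embryo proper, and the ExE is the trophoblast tissue that contributes to the placenta. Both tissues gain DNA methylation after implantation, when DNMT3A and DNMT3B, the de novo methyltransferases, write the mark and DNMT1 copies it at cell division. In most somatic cells CpG islands, the short CpG-rich stretches at many gene starts, stay free of methylation while the CpG-poor bulk of the genome is methylated. The ExE is known for low methylation of the bulk and for methylation of CpG islands of developmental genes that the epiblast keeps free.

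Mean methylation over all windows was 65.6%, 71.2% and 74.9% in the B6/CAST epiblast (replicates 1 and 3 and the unnumbered sample), and 79.3%, 78.7% and 79.8% in the CAST/B6 epiblast. It was 52.4% and 52.4% in the B6/CAST ExE, and 65.7% and 63.3% in the CAST/B6 ExE. Within each cross every epiblast sample lay above every ExE sample, while across crosses the lowest epiblast sample and the highest ExE sample met. The mean difference of 16.5 percentage points between the tissues (exact two-sided permutation test over the 10 samples, p = 0.0190) is the shift against which single windows are read below. Subtracting each sample's mean moves every difference down by these 16.5 points. The difference of a window near 0% in both tissues then falls below 0, so calls made afterwards are relative to the sample means. Windows without a value made up at most 3.40% of the autosomal windows in 8 samples, but 10.2% in B6/CAST epiblast replicate 3 and 9.54% in CAST/B6 ExE replicate 1, so those samples are the sparsest. The columns of the unnumbered epiblast sample and of both B6/CAST ExE samples carry a mark of a second import whose meaning is not given. No CAST/B6 column carries it, and within CAST/B6 the difference was 14.8 points. A part of this mark in the values was not tested. Of the autosomal windows 78.3% were complete in the 10 samples, but of those at gene starts only 65.9%, and the incomplete windows were left out of the tests.

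The difference between the tissues grew with window length and turned over in the shortest windows. In the 23096 windows of 14 kb or more, the most CpG-poor, methylation was 59.3%, 68.2% and 75.6% in the B6/CAST epiblast and 81.2%, 81.3% and 84.3% in the CAST/B6 epiblast. The same windows had 36.7% and 36.6% in the B6/CAST ExE, and 57.3% and 54.0% in the CAST/B6 ExE. No ExE sample reached an epiblast sample there. Over the 6 epiblast samples the mean ± SD was 74.98% ± 9.58, against 46.1% ± 11.1 over the 4 ExE samples, 28.8 points apart (exact permutation test, adjusted over the 6 length classes, p = 0.0190). In the 7570 windows under 1 kb, the most CpG-rich, the epiblast samples ranged from 3.67% to 4.61% and the ExE samples from 4.87% to 5.45%. Here all 4 ExE samples were above all 6 epiblast samples, with means of 4.18% ± 0.349 (SD, n = 6) and 5.07% ± 0.256 (SD, n = 4) and a difference of -0.894 points (exact permutation test, adjusted p = 0.0190). The median difference of the single windows was only -0.129 points, and 5% of them were at -9.27 points or lower.

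The classes in between formed a gradient. Windows of 1 to 2 kb had 34.6% ± 1.94 in the epiblast and 32.9% ± 2.15 in the ExE, and their difference of 1.73 points did not pass the exact permutation test (adjusted p = 0.248). The epiblast was higher by 10.6 points in windows of 2 to 4 kb, by 15.8 points at 4 to 8 kb and by 21.8 points at 8 to 14 kb. These differences passed the exact permutation test, with adjusted p-values of 0.0229, 0.0229 and 0.0190. The median CpG density fell from 93.3 CpG per kb in windows under 1 kb to 4.26 CpG per kb in windows of 14 kb or more. Levels rose with length up to 4 to 8 kb in both tissues, and from there to 14 kb or more the ExE mean fell from 64.8% to 46.1% while the epiblast mean went from 80.5% to 74.98%. The difference in windows of 14 kb or more minus that in windows under 1 kb lay between 26.6 and 33.3 points when each sample in turn was left out.

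**Figure D1:**
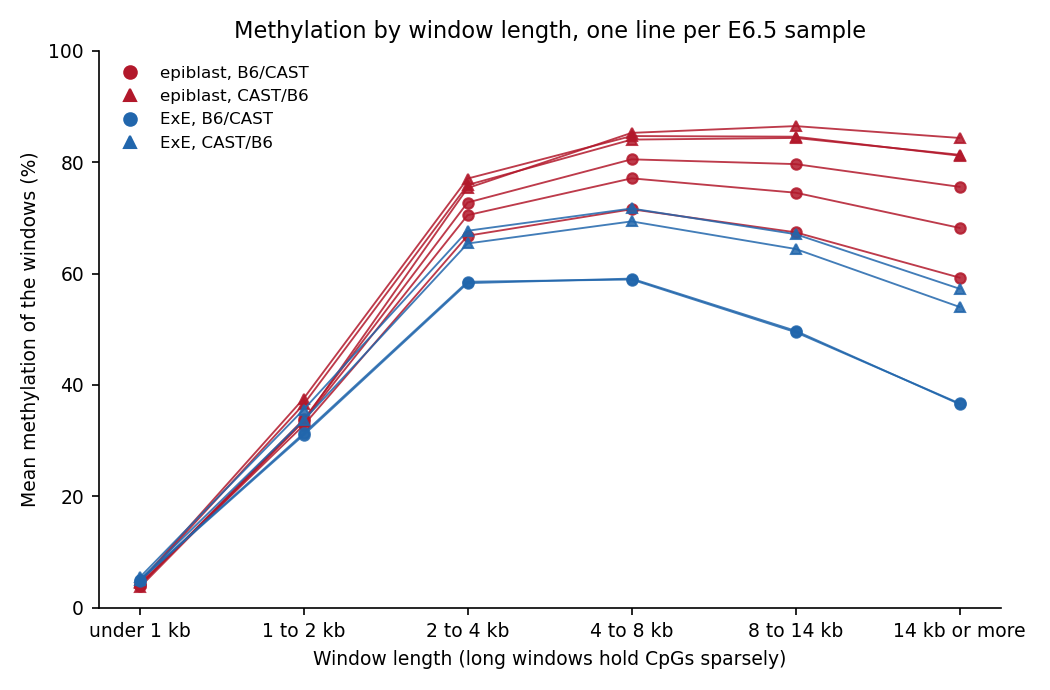
Mean methylation in percent (y axis) of the windows in 6 length classes (x axis), with 1 line per E6.5 sample, red for epiblast and blue for ExE, circles for B6/CAST and triangles for CAST/B6. The lines meet under 2 kb and spread with length, and at 14 kb or more the epiblast samples lie between 59.3% and 84.3% and the ExE samples between 36.6% and 57.3%.

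Single windows were tested with limma, a linear model with a shared estimate of the spread, with the cross as a covariate. At an adjusted p under 0.05, 149574 windows were higher in the epiblast, 59.6% of those tested, and 1664 were higher in the ExE, 0.663%. In 736 of the 1664, 0.293% of all windows, the 4 ExE samples lay above all 6 epiblast samples. A difference of at least 20 points was seen in 96275 of the first and 567 of the second. After each sample's mean was subtracted, 15690 windows were higher in the epiblast and 21728 in the ExE relative to the sample means.

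The calls followed window length. The share of windows called higher in the epiblast was 0.647% under 1 kb, 11.0% at 1 to 2 kb, 37.7% at 2 to 4 kb, 59.4% at 4 to 8 kb, 77.9% at 8 to 14 kb and 93.0% at 14 kb or more. The share called higher in the ExE was 3.63% under 1 kb, where it exceeded the epiblast share, and peaked at 8.74% in windows of 1 to 2 kb. It was 1.42% at 2 to 4 kb and 0.142% at 4 to 8 kb, and only 5 of 54857 windows of 8 to 14 kb and none of 23096 of 14 kb or more were called higher in the ExE. Windows of 1 to 2 kb thus had calls in both directions, and the middle 90% of their differences ran from -17.0 to 18.9 points although their mean difference was small.

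**Figure D2:**
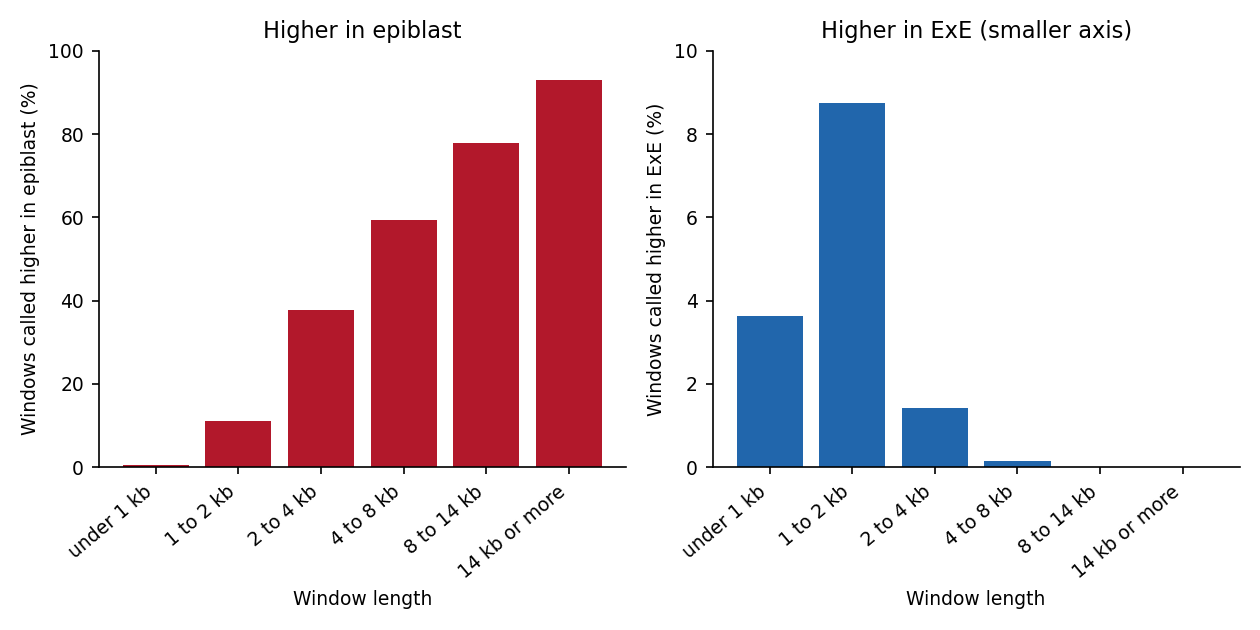
Share of the windows of each length class, in percent (y axes, with a smaller range on the right), called higher in the epiblast (left) or in the ExE (right) by limma at an adjusted p under 0.05. The left bars rise from 0.647% to 93.0%, and the right bars peak at 8.74% for windows of 1 to 2 kb.

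Windows were also grouped by their place relative to protein-coding genes. Windows over a gene start had 46.1% ± 4.34 in the epiblast (SD, n = 6) and 34.7% ± 5.03 in the ExE (SD, n = 4), a difference of 11.4 points. Gene bodies differed by 13.4 points (76.6% and 63.3%) and intergenic windows by 20.4 points (76.3% and 55.8%). The epiblast was higher in all 3 groups (exact permutation test, adjusted p = 0.0190 each). The gradient with length appeared within each group. At 14 kb or more the difference was 28.5 points at gene starts, 27.5 points in gene bodies and 29.3 points between genes. Under 1 kb it was -0.278 points at gene starts, which did not pass the exact test (adjusted p = 0.0686), -1.07 points in gene bodies and -1.90 points between genes (both p = 0.0190). Short intergenic windows held the largest share of ExE calls, with 16.1% of those of 1 to 2 kb called higher in the ExE and 12.4% called higher in the epiblast.

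The tissues also differed in how many windows were fully or partly methylated. Windows at 80% or more made up 24.2% to 72.3% of all windows in the epiblast samples and 9.01% to 27.7% in the ExE samples. The ranges overlapped through B6/CAST epiblast replicate 1. The means were 54.3% ± 18.6 and 17.3% ± 9.14 (exact permutation test, p = 0.0190). Windows between 20% and 80% made up 40.5% in the epiblast and 76.8% in the ExE, and windows under 20% made up 5.26% and 5.92%, which did not pass the exact test (p = 0.105). The ExE was thus mostly in an intermediate state in bulk tissue, where cells that differ and molecules that are partly methylated cannot be told apart.

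No stretch of the genome at the scale of 1 Mb went against the global trend. Of 2386 regions of 1 Mb with at least 20 windows, 2386 were called higher in the epiblast (100% of those tested), by 6.76 to 35.8 points with a median of 18.3 points, and in 1190 the samples did not overlap. Each of the 19 autosomes was higher in the epiblast, from 14.6 points on chromosome 11 to 18.0 points on chromosome 3 (exact permutation test, highest adjusted p = 0.0190). With the sample means subtracted, 1193 regions were higher in the epiblast and 715 in the ExE. All regions share the same samples and limma pools their spread, so the region calls and p-values are not independent of each other.

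Regions with few genes differed most. The median difference was 28.9 points in the 274 regions with no protein-coding gene start, 21.6 points in the 941 with 1 to 5, 15.1 points in the 920 with 6 to 20, and 12.1 points in the 251 with more than 20. The region with the largest difference was chr9:10000001-11000000, which holds the start of Cntn5, a neural cell adhesion gene. Its 49 windows had a median length of 14985 bp, and 49 were called higher in the epiblast. Its mean was 75.8% ± 9.91 in the epiblast and 39.99% ± 11.1 in the ExE, a difference of 35.8 points (limma, adjusted p = 8.42e-11). Next came chr10:16000001-17000000, chr15:17000001-18000000 and chr11:38000001-39000000, none with a protein-coding start, and chr6:45000001-46000000 with the start of Cntnap2, another neural cell adhesion gene, at 34.3, 34.1, 33.7 and 34.0 points.

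The smallest differences were in gene-rich regions with short windows. The region chr7:19000001-20000000, with 53 protein-coding starts including Apoe and Six5, differed by 6.76 points (57.9% and 51.1%). The region chr4:156000001-157000000 (13 starts) differed by 6.88 points and chr10:81000001-82000000 (49 starts) by 6.91 points. The remaining 2 held clusters of developmental genes. In chr19:45000001-46000000, with Tlx1, Lbx1 and Fgf8, the difference was 6.96 points and 17 of 220 windows were called higher in the ExE, and in chr15:102000001-103000000, with genes of the Hoxc cluster and the keratin genes Krt8 and Krt18, it was 7.28 points with 14 of 206. All 5 were below 0 after subtraction of the sample means, at -9.72 to -9.21 points.

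Of single windows, the 5 with the largest excess in the epiblast were mostly far from genes. The first, chr5:61955706-61972663, lies 153021 bp from G6pd2, its nearest protein-coding gene. It had 61.9%, 85%, 90.4%, 94.0%, 67.6% and 92.7% in the epiblast and 8.93%, 18.8%, 21.4% and 22.2% in the ExE. The gap between the groups was wide, and the fitted difference was 64.1 points (SE 6.64, limma adjusted p = 0.000408). The windows nearest Pcdh17 (chr14:85445415-85460691, 914051 bp away) and Nrg3 (chr14:40086071-40097538, 618716 bp away) differed by 61.2 and 58.3 points. The fourth was a window of 3246 bp in Elf5 (57.8 points), the one short window among them, and the fifth a window inside Cdh19 (chr1:110958630-110977501), a cadherin gene, at 57.2 points.

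Elf5 encodes an ETS transcription factor of trophoblast stem cells whose gene is methylated in the embryonic lineage. The window chr2:103420839-103424084 covers an Elf5 transcript start at position 103424062. The 300 bases around that start, most of them upstream, are printed from the RefSeq promoter table (GRCm38.p6, plus strand, chr2:103423818-103424117) with each CpG in capitals, because 267 of them lie in the window with the largest difference at any gene start of the locus. They hold 10 CpG sites, and 44.0% of 31396 autosomal promoter sequences of the same length hold at least as many, with a median of 7. The dinucleotide CG, which reads the same on both strands, occurs in 94.8% of these sequences.
Elf5: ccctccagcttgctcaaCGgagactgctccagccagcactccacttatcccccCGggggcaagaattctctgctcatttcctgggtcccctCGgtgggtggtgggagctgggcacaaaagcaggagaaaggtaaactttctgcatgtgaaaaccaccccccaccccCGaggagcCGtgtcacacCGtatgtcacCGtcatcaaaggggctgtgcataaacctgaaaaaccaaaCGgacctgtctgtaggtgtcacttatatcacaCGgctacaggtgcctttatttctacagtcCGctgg

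At this start the epiblast samples had 79.2%, 83.8%, 76.4%, 98.1%, 89.5% and 83.6%, and the ExE samples 18.1%, 38.0%, 39.1% and 14.3%. All epiblast samples were highly methylated and all ExE samples were under 40%. The means were 85.1% ± 7.80 and 27.4% ± 13.0, with a difference of 57.8 points (SE 6.01, limma adjusted p = 0.000408). The window upstream of it (33.6 points, adjusted p = 0.000809) and the window downstream, with the starts of Elf5-207 and Elf5-203 (42.2 points, adjusted p = 0.00104), were also higher in the epiblast. The most upstream start of the gene, at 103411688, gave another picture. There the epiblast had 83.8% ± 8.39 and the ExE 74.7% ± 7.04, and the difference of 9.07 points did not pass limma's test (adjusted p = 0.0954) and was -7.42 after the sample means were subtracted. With the single start per gene used for the promoter windows, Elf5 was therefore not called.

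Plet1, a surface protein of trophoblast progenitors, had the largest excess in the epiblast among the promoter windows of trophoblast regulators. Its promoter sequence (RefSeq, GRCm38.p6, plus strand, chr9:50494275-50494574) is printed for contrast with Elf5, since it holds only 5 CpG sites, and 62.4% of the promoter sequences hold at least as many.
Plet1: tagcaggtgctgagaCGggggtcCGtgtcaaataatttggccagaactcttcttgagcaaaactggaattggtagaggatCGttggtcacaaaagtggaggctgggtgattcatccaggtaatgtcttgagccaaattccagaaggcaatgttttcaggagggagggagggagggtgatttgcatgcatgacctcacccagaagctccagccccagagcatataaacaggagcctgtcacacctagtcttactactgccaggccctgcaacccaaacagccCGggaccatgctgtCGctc

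The Plet1 window, chr9:50490275-50495516, had 56.9%, 67.8%, 67.1%, 84.3%, 80.5% and 81.8% in the epiblast and 20.9%, 26.2%, 26.9% and 48.2% in the ExE. The groups did not overlap, and the difference was 42.5 points (SE 4.72, limma adjusted p = 0.000419). At E7.5 the window with the largest overlap had 78.6% in the epiblast and 43.2% in the ExE (limma adjusted p = 0.000487).

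Windows over the start of a protein-coding gene, called promoter windows here, numbered 12665 and stood for 13431 of 20807 autosomal genes. Of these 4901 were higher in the epiblast (38.7%) and 187 in the ExE (1.48%), and their median difference was 10.2 points, or -6.31 after subtraction of the sample means. With the means subtracted the counts were 534 and 3529. Among the 187, 48 differed by at least 20 points.

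The 10 promoter windows with the largest excess in the epiblast were, with 1 exception, long and CpG-poor, and 6 of them belong to chemosensory receptor genes. These are the olfactory receptor genes Olfr1100 (51.5 points), Olfr202 with Olfr203, which share a window (50.6), and Olfr120 (49.8), and the vomeronasal receptor genes or pseudogenes Vmn2r97 (51.4), Vmn2r-ps130 (49.2) and V1rd19 (48.0). Such families hold near-identical copies, so reads may not always be placed on the right member. The other windows are at Gm8882 (54.8 points), at Lipn, a lipase gene expressed in skin (53.8), at Apcs, which encodes serum amyloid P (48.9), and at Sec13, which encodes a coat protein of vesicles and nuclear pores (49.7). The Lipn window had 71.7%, 100%, 83.7%, 93.3%, 80.5% and 89.5% in the epiblast and 41.98%, 31.0%, 28.3% and 29.5% in the ExE, with a wide gap between the groups (SE 5.67, limma adjusted p = 0.000408). In these 10 windows every epiblast sample lay above every ExE sample, as the rule that chose them asked. At Sec13, whose start lies at the edge of a window of 5830 bp, B6/CAST epiblast replicate 1 had 43.0% and the other epiblast samples 78.6% to 95.1%, against 20% to 41.7% in the ExE. The E7.5 window with the largest overlap there is shorter, chr6:113740561-113744056, and its levels of 28.8% and 22.5% did not pass limma's test (adjusted p = 0.0537). The other 9 passed at E7.5 in the same direction.

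**Figure D3:**
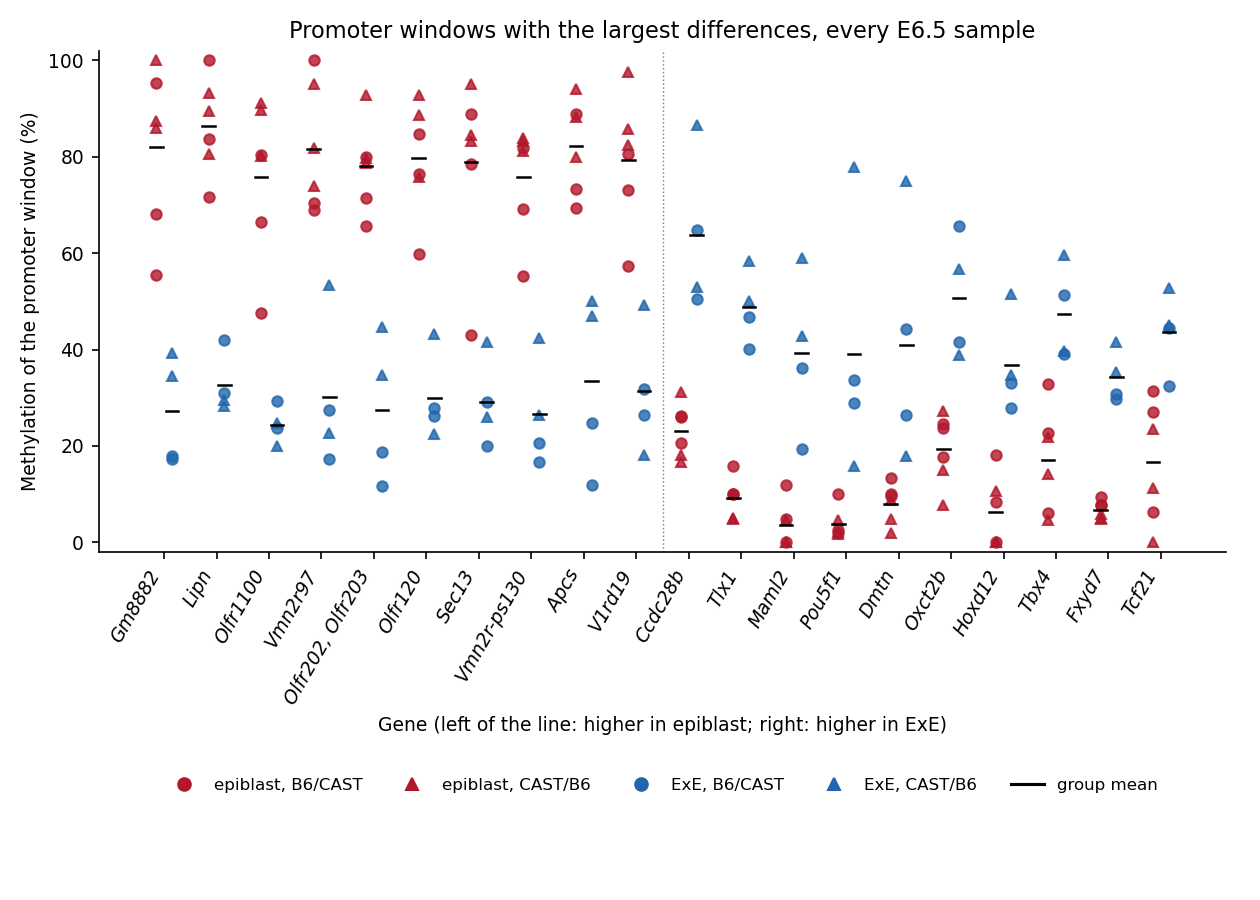
Methylation in percent (y axis) of the 10 promoter windows with the largest difference in each direction (x axis), with a point for every E6.5 sample (red epiblast, blue ExE, circles B6/CAST, triangles CAST/B6) and a bar for each group mean. At Tlx1 the epiblast samples lie at 4.76% to 15.9% and the ExE samples at 40.2% to 58.3%, and at Pou5f1 the ExE samples spread from 15.9% to 77.8%.

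Some short promoter windows, which seldom differed, were also higher in the epiblast. Among windows over gene starts 6 under 1 kb and 89 of 1 to 2 kb were called in that direction, which is 0.262% and 6.08% of their classes. Those named here were chosen after their values were seen. At Pcyt2, an enzyme of phospholipid synthesis, the epiblast had 49.2% and the ExE 16.1% (33.1 points, limma adjusted p = 0.00872), and at Sfi1, a centrosome gene, 62.3% and 36.6% (25.6 points, adjusted p = 0.000834). At Dtymk, thymidylate kinase, 21.2% in the epiblast stood against 0.676% in the ExE (20.5 points, adjusted p = 0.0118). In these 3 the samples of the tissues did not overlap, and at E7.5 the differences were 3.96, 25.8 and 21.3 points, of which that of Pcyt2 was not called (limma adjusted p = 0.176).

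The 10 promoter windows with the largest excess in the ExE were shorter, from 1078 bp at Hoxd12 to 4011 bp at Tlx1. They were at Ccdc28b (-40.6 points), Tlx1 (-39.5), Maml2 (-35.8), Pou5f1 (-35.3), Dmtn (-32.9), Oxct2b (-31.3), Hoxd12 (-30.6), Tbx4 (-30.3), Fxyd7 (-27.6) and Tcf21 (-27.1), where a negative value means higher in the ExE. Pou5f1, Tlx1, Hoxd12, Tbx4 and Tcf21 encode transcription factors, and Maml2 encodes a coactivator of Notch signalling. The Dmtn window overlaps Fgf17 and the Oxct2b window overlaps Bmp8b, genes of the FGF and BMP ligand families, and the Fxyd7 window also covers a start of Fxyd1, so that these windows cannot be assigned to 1 gene. All 10 were also called higher in the ExE at E7.5. The promoter sequences of 3 of them (RefSeq, GRCm38.p6, plus strand) are printed with each CpG in capitals, because they are the starts of 3 transcription factor genes that were more methylated in the ExE. They are Pou5f1 at chr17:35505782-35506081 with 11 CpG sites, Tlx1 at chr19:45150465-45150764 with 16, and Hoxd12 at chr2:74674763-74675062 with 13, and 41.9%, 33.6% and 38.5% of promoter sequences hold at least as many.
Pou5f1: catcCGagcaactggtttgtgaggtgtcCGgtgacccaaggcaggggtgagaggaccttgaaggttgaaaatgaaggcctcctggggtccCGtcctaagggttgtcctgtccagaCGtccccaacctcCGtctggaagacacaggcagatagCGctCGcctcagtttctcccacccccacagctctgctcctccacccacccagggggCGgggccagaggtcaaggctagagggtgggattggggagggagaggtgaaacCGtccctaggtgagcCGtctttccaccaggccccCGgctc
Tlx1: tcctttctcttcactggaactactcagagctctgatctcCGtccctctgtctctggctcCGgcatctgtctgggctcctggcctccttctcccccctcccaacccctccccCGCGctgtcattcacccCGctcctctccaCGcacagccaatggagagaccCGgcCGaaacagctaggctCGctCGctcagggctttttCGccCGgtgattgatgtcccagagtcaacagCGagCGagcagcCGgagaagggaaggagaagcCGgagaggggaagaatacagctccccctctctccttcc
Hoxd12: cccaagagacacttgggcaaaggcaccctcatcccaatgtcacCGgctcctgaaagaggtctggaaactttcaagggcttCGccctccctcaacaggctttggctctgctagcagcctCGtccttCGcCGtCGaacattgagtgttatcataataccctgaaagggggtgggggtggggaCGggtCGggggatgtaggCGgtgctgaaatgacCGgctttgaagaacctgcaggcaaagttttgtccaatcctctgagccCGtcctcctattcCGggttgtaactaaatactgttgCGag

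Pou5f1 encodes OCT4, the transcription factor that maintains pluripotency, and it is active in the epiblast and silent in trophoblast. Its window (chr17:35505630-35507484, with the transcript starts at 35506018 and 35507482) had 2.56%, 10.0%, 1.85%, 2.08%, 4.55% and 1.79% in the epiblast and 29.0%, 33.8%, 77.8% and 15.9% in the ExE. The groups did not overlap, but the ExE samples differed widely, and the highest value in each tissue came from its sparsest sample. The means were 3.81% ± 3.20 and 39.1% ± 26.9 (SE 9.31, limma adjusted p = 0.00791), and without CAST/B6 ExE replicate 1 the difference was -21.4 points, still called. At E7.5 the overlapping window, which begins downstream of the first start, had 9.46% ± 2.30 and 26.9% ± 1.23 (n = 4 each, limma adjusted p = 0.000174).

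Tlx1, a homeobox gene needed for the spleen, had 15.9%, 10.0%, 10.1%, 5%, 4.76% and 10.0% in the epiblast and 40.2%, 46.7%, 50% and 58.3% in the ExE. The samples of each tissue lay close together (SE 4.398, limma adjusted p = 0.000419). Hoxd12, a limb patterning gene at the 5′ end of the Hoxd cluster, had 8.42%, 18.2%, 0%, 10.7%, 0% and 0% in the epiblast and 33.0%, 27.9%, 51.6% and 34.8% in the ExE (SE 5.59, limma adjusted p = 0.00146). At both genes even the lowest ExE sample was above the highest epiblast sample. At Dmtn the ExE samples ran from 17.9% to 75%, again with CAST/B6 ExE replicate 1 on top, and without it the difference was -19.96 points.

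The 1664 windows higher in the ExE shared several features. Their median length was 1930.5 bp against 5923 bp for all windows, and none was longer than 9706 bp. Their median level was 10.4% in the epiblast and 31.1% in the ExE, with a median difference of -17.2 points. The epiblast mean was under 20% in 71.6% of them, against 5.03% of all windows tested. They were mostly stretches of low methylation in the epiblast and partly, not fully, methylated in the ExE. These levels are a description, since the windows were chosen by the same values, and a low epiblast level leaves more room for an ExE excess. They were spread over 1012 nearest genes. A Hox gene or a developmental transcription factor of the lists was the nearest gene of 428 of them, 25.7%, against 1.42% of all windows. Among windows under 4 kb the shares were 26.3% (393 of 1497) and 1.995%. The lists were drawn up with earlier results of these data known, and the shares count windows, of which several can have the same nearest gene.

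The excess was narrow along the chromosome. Around each window higher in the ExE, the windows at 1 to 6 steps on either side were averaged, 1289 to 1372 of them per step. In the windows themselves, which were chosen for this difference, the epiblast samples had 14.7% to 21.2% and the ExE samples 34.1% to 37.2%. In the next window upstream the mean was 36.0% in the epiblast and 38.5% in the ExE, and in the next one downstream 36.7% and 39.0%. Of these neighbours, 343 of 1314 upstream and 343 of 1289 downstream were themselves called higher in the ExE. At 2 steps the order had turned, with the epiblast 3.51 points higher upstream and 3.58 points higher downstream. At 6 steps it was higher by 10.4 and 10.0 points, still less than the 16.5 points of all windows. The epiblast levels thus formed a deep trough, from 61.2% at 6 steps upstream to 17.1% at the centre, where the ExE levels formed a shallow one, from 50.8% to 35.9%. These values are given as a description, since the centre windows were chosen by the same measurements.

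**Figure D4:**
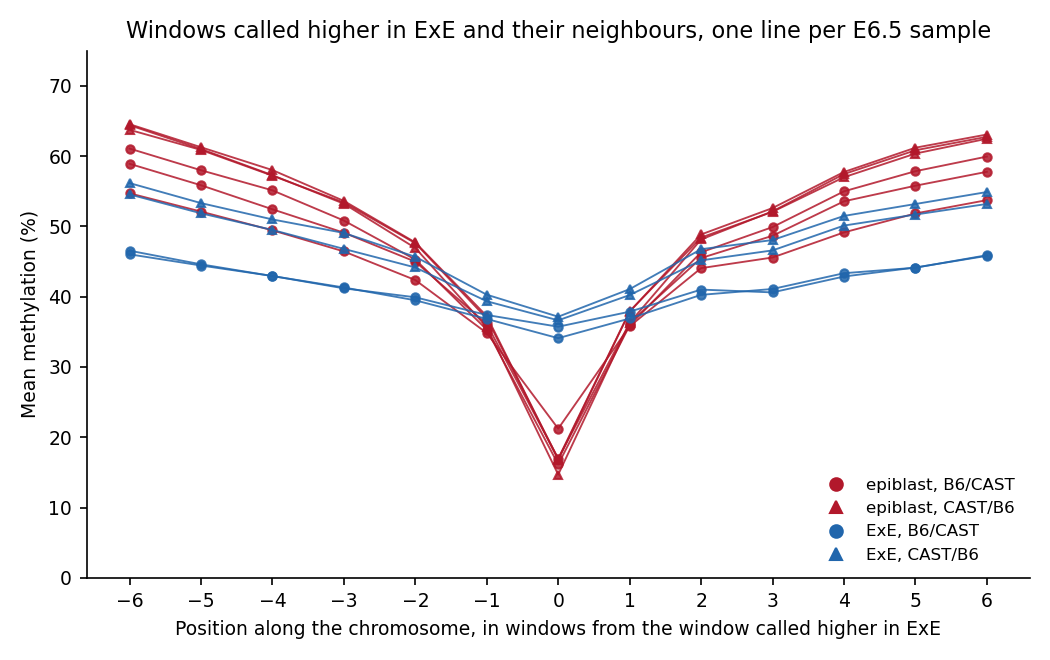
Mean methylation in percent (y axis) of the 1664 windows called higher in the ExE (position 0) and of the windows up to 6 steps away on either side (x axis, in windows), 1 line per E6.5 sample with the colours red for epiblast and blue for ExE. The epiblast lines drop to 14.7% to 21.2% at position 0, and the ExE lines stay at 34.1% to 37.2%.

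Several genes were the nearest gene of many windows higher in the ExE, and they were picked after the values were seen. Nr2f2, an orphan nuclear receptor gene of vessels and mesenchyme, was the nearest gene of 12 of them among 123 windows, and Tbx5, a T-box gene of heart and forelimb, of 12 among 53. Nfix, a nuclear factor I gene, had 11 of 33, Skor1, a neural corepressor gene, 10 of 29, Tbx3 9 of 103 and Tfap2a, an AP-2 gene of neural crest and ectoderm, 9 of 49. Lbx1, Otx2, Pax6 and Pax7, homeobox or paired-box genes of the nervous system and muscle, had 8 each. The called windows lay up to 258691 bp from Nr2f2, 78653 bp from Otx2 and 34625 bp from Tbx5, while the midpoints of those of Nfix lay within the gene. Near Nr2f2 the called windows had 4.07% to 16.9% in the epiblast and 15.9% to 61.3% in the ExE. Near Tbx5 they had 3.57% to 22.7% and 18.8% to 53.3%. Other windows of the same loci went the other way, with 75 near Nr2f2 and 30 near Tbx5 called higher in the epiblast. At E7.5, 11 of the 12 near Nr2f2 and 12 of the 12 near Tbx5 were called higher in the ExE.

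The single window with the largest excess in the ExE lies 5857 bp from En1, a homeobox gene of the midbrain and limb, at chr1:120612953-120614746. It had 29.7%, 0%, 32.3%, 0%, 0% and 4.55% in the epiblast and 55.2%, 59.3%, 92.0% and 52.0% in the ExE, with no overlap and a difference of -53.5 points (SE 9.31, limma adjusted p = 0.00118). The epiblast values fell into a group near 0 and a pair near 30%. The following 4 windows lie within genes. They are in Cit, a kinase gene of cytokinesis (-49.5 points), Magi1, a junction scaffold gene (-49.0), Lhx9, a homeobox gene of the gonad and brain (-48.9), and Inppl1, which encodes a phosphoinositide phosphatase (-46.9). At Inppl1, chr7:101822153-101823880, the epiblast had 2.94% to 17.6% and the ExE 46.0% to 61.6%, but at E7.5 the overlapping window had 16.4% and 20.9% and was not called (limma adjusted p = 0.191). The other 4 were called higher in the ExE at E7.5.

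The promoter windows were then read by gene list, each list with its median difference beside the 10.2 points of all promoters. Subtraction of the sample means lowers each median by about 16.5 points, and the median after it is given as the centred median. The counts of each list stand against the 38.7% and 1.48% of all promoter windows called higher in the epiblast and in the ExE at E6.5, and against 62.9% and 2.59% of the 12658 matched windows at E7.5. Hox genes, the homeobox genes of the 4 clusters that pattern the body axis, stood at the ExE end. Of 23 promoter windows 7 were higher in the ExE and 0 in the epiblast by limma, with a median of -8.34 points (centred -24.8), and at E7.5 the counts were 19 and 0. Their median length was 1320 bp. Of all gene start windows of 1 to 2 kb, 6.08% were called higher in the epiblast and 5.39% in the ExE, with a mean difference of 1.72 points. Beside Hoxd12, Hoxb2 had 10.7%, 18.5%, 6.67%, 25.9%, 7.95% and 13.3% in the epiblast and 41.9%, 43.2%, 41.3% and 20.7% in the ExE (-22.9 points, adjusted p = 0.00555). One ExE sample, CAST/B6 replicate 2, fell within the epiblast range there. Hoxb6 was at -21.6 points (adjusted p = 0.0213), with calls lost without B6/CAST ExE replicate 2 (-20.8 points) or CAST/B6 ExE replicate 1 (-12.4 points).

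Developmental transcription factors outside the Hox clusters followed the same direction. Of 88 windows 22 were higher in the ExE and 1 in the epiblast, with a median of -5.37 points (centred -21.9), and at E7.5 43 and 8. Their median length, 1115 bp, also falls in the class of 1 to 2 kb. Besides Tlx1 and Tbx4, the promoter of Tbx5 had 10.5%, 43.8%, 16.2%, 0%, 2.19% and 17.4% in the epiblast and 38.3%, 47.2%, 55.2% and 68.2% in the ExE (-37.2 points, adjusted p = 0.00384). Only B6/CAST epiblast replicate 3 reached into the ExE range. The exception was Mesp2, a gene of somite segmentation, whose window of 5876 bp had 79.9% in the epiblast and 61.2% in the ExE (18.6 points, adjusted p = 0.0106). Signals of gastrulation, the Wnt, Nodal, Bmp and Fgf ligands and their antagonists, had a median of -1.32 points over 23 windows (centred -17.8), with 3 higher in the epiblast and 2 in the ExE, and 5 and 7 at E7.5. Gdf1, a TGF-beta ligand that works with Nodal, was at -22.4 points (11.7% and 34.2%, adjusted p = 0.00488, no overlap). Dkk1, a Wnt antagonist, was at -14.2 points (adjusted p = 0.0194), a call lost without B6/CAST ExE replicate 1 (-12.03 points). Fgf10 was at 24.3 points (adjusted p = 0.00538), Cfc1, a Nodal coreceptor, at 15.9 points (adjusted p = 0.0126, lost without B6/CAST ExE replicate 2 at 12.9 points), and Fgf4 at 16.4 points (adjusted p = 0.0378). The Fgf4 call was lost in 6 of the 10 fits that each left out 1 sample, with 8.57 points without CAST/B6 ExE replicate 2.

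Genes of pluripotency had calls in both directions. Of 23 windows 9 were higher in the epiblast, a share of 39.1% close to the 38.7% of all promoter windows, and 3 in the ExE, 13.0% against 1.48%, with a median of 1.75 points (centred -14.7). Without B6/CAST ExE replicate 1 the 9 fell to 5. The 3 were Pou5f1, Otx2 (-17.0 points, adjusted p = 0.0213, lost without CAST/B6 ExE replicate 2 at -10.0 points) and Nanog. Nanog, a transcription factor of naive pluripotency, had 69.4%, 16.7%, 57.7%, 39.2%, 45.0% and 46.9% in the epiblast and 67.1%, 76.2%, 81.2% and 58.0% in the ExE. The ranges overlapped, and the call (-24.9 points, adjusted p = 0.0291) was lost without CAST/B6 epiblast replicate 1 (-23.7 points), B6/CAST ExE replicate 2 (-23.4 points) or CAST/B6 ExE replicate 1 (-20.1 points). At E7.5 the overlapping window, which begins downstream of the start, had 74.7% and 70.9% and was not called (adjusted p = 0.402). Higher in the epiblast were Zfp42, also known as Rex1, at 38.7 points (56.5% ± 25.0 and 17.7% ± 18.3, adjusted p = 0.00625), Dppa4 at 35.4 points (adjusted p = 0.00222) and Tdh, threonine dehydrogenase, at 26.1 points (adjusted p = 0.00329). For Zfp42 and Dppa4 the ranges of the tissues overlapped. At Dppa4, 3 ExE samples had 26.3% to 28.6% and CAST/B6 replicate 1 had 67.9%.

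Of 18 windows of trophoblast regulators, 3 were higher in the epiblast and 0 in the ExE, with a median of 3.61 points (centred -12.9). They were Plet1, Esrrb, an orphan receptor gene of trophoblast and naive stem cells (17.7 points, adjusted p = 0.0189, lost without B6/CAST ExE replicate 1 at 13.4 points), and Furin, a proprotein convertase gene (14.9 points, adjusted p = 0.0399). The Furin difference turned to -1.60 with the sample means subtracted, and its call was lost in 7 of the 10 fits without 1 sample. At the start of Tfap2c, which encodes the trophoblast factor AP-2 gamma, 1.60% and 1.12% were measured and no call was made (adjusted p = 0.913). Cyba, an oxidase subunit, had 38.6% ± 14.2 in the epiblast and 27.3% ± 12.03 in the ExE with overlapping ranges (11.3 points, adjusted p = 0.216, and -5.16 with the means subtracted). Without B6/CAST ExE replicate 1 the 3 calls of the list fell to 1. At E7.5 the list had 7 windows higher in the epiblast and 3 in the ExE.

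For some central genes the window at the start lacked a value in at least 1 sample, so they were tested only in a fit that asked for values in at least 5 epiblast and 3 ExE samples, and none of the 5 passed there (limma, lowest adjusted p = 0.311, at Cdx2). Cdx2, the trophectoderm factor, had 5.94% ± 4.98 in 5 epiblast samples and 11.9% ± 5.48 in 3 ExE samples, and the 2 ranges overlapped. Eomes had 1.45% and 1.06%, Sox2 1.10% and 1.95%, and Dnmt3b 6.74% and 6.53%. Dnmt3l, the cofactor of the de novo enzymes, had 41.2% and 39.4%. The Eomes and Sox2 starts were nearly free of methylation in both tissues. Of the 10 windows of DNA methylation writers, erasers and readers that could be tested, 1 was higher in the epiblast, that of Tet3, a dioxygenase that oxidises methylcytosine (22.9 points, adjusted p = 0.00283, overlapping ranges). The list's median was 13.5 points (centred -2.96), and leaving out 1 sample gave 1 to 4 calls, 4 without CAST/B6 epiblast replicate 3.

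**Figure D5:**
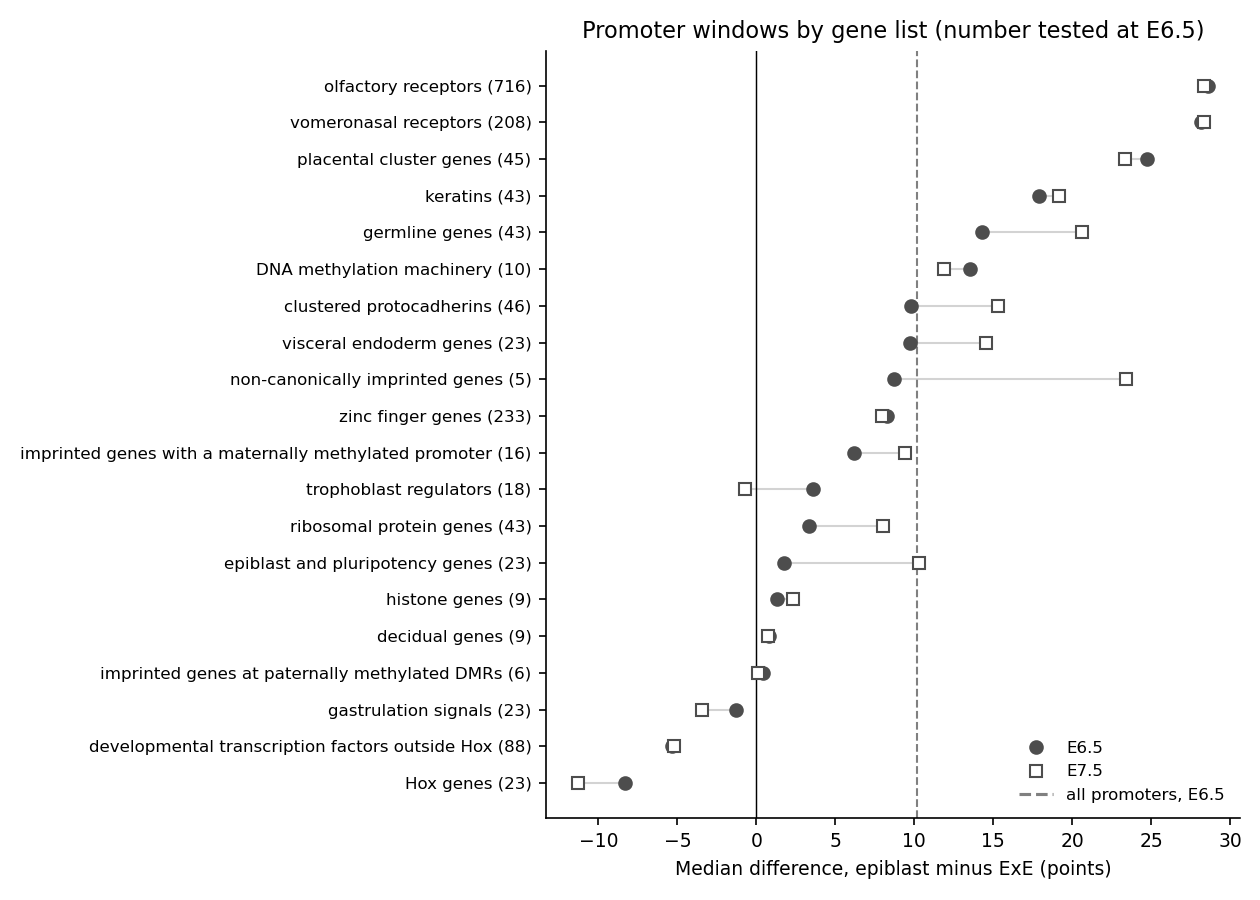
Median difference of the promoter windows of 20 gene lists, epiblast minus ExE in percentage points (x axis), at E6.5 (filled circles) and E7.5 (open squares), with the number of windows tested at E6.5 in brackets and the median of all promoters at E6.5 as a dashed line. The lists run from -8.34 points for Hox genes to 28.6 points for olfactory receptors, and after subtraction of the sample means those with an E6.5 median between 0 and 16.5 points fall below 0.

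At the other end stood large gene families, most of them in CpG-poor clusters. Of 716 windows of olfactory receptor genes 672 were higher in the epiblast and 0 in the ExE (median 28.6 points, centred 12.1), and of 208 windows of vomeronasal receptor genes 198 and 0 (median 28.1, centred 11.6). In the latter list, which does not hold Vmn2r-ps130 and V1rd19, Vmn2r97 was followed by Vmn1r219 (44.3 points) and Vmn1r5 (43.5 points). The median window lengths of both lists were 15706 and 16228 bp, and the class of 14 kb or more had 93.0% called higher in the epiblast, close to the 93.9% and 95.2% of these lists. Genes of the placental clusters, the prolactins, the pregnancy-specific glycoproteins and the placental cathepsins, had 36 of 45 higher in the epiblast and 0 in the ExE, with a median of 24.7 points (centred 8.24). Prl8a8 had 48.5%, 78.1%, 64.3%, 78.8%, 72.2% and 100% in the epiblast and 40.9%, 13.8%, 32.9% and 30% in the ExE, a gap in which no samples overlapped (44.2 points, adjusted p = 0.00119). Cts8 was at 41.6 points and Prl2c5 at 41.3 points. The windows of the placental list were also long, with a median of 15509 bp. The 80% of them called higher in the epiblast lay below the 93.0% of the class of 14 kb or more. Keratins had 29 of 43 higher in the epiblast and 0 in the ExE (median 17.9, centred 1.43), led by Krt77 (39.5 points), Krt14 (30.5 points) and Krt32 (28.4 points). Keratin windows were shorter, with a median of 4128 bp, near the 3794 bp of all promoter windows.

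Germline genes, which somatic cells silence by promoter methylation, had 17 of 43 higher in the epiblast and 0 in the ExE, with a median of 14.3 points (centred -2.23). The 17 are 39.5%, close to the 38.7% of all promoter windows. At E7.5 the counts were 37 and 0 of 43, where 62.9% of all matched promoter windows were called higher in the epiblast. Sycp1, of the synaptonemal complex, had 80.2%, 58.3%, 80.1%, 84.0%, 78.8% and 85.2% in the epiblast and 46.0%, 19.3%, 60% and 42.2% in the ExE. Only B6/CAST epiblast replicate 3 fell into the ExE range (35.9 points, adjusted p = 0.00140). Msh4, of meiotic recombination, and Nlrp5, an oocyte gene, differed by 34.6 points and 32.2 points. Clustered protocadherins, which encode neuronal surface proteins, had 13 of 46 higher in the epiblast and 1 in the ExE (median 9.79, centred -6.69), and the 13 fell to 7 without B6/CAST ExE replicate 2. Pcdhga7, with 52.3% and 18.0%, Pcdhb5 and Pcdhb10 were higher in the epiblast. Pcdhgc5 went the other way with 23.2% and 52.3% (-29.1 points, adjusted p = 0.00409). Zinc finger genes had 61 of 233 higher in the epiblast and 2 in the ExE (median 8.24, centred -8.24), among them Zfp454 at 38.9 points, Zfp985 at 36.7 points and, in the other direction, Zfp963 at -26.1 points and Zfp935 at -21.0 points. Without B6/CAST ExE replicate 2 the list had 38 and 1 calls. The call of Zfp935 was lost in 4 of the 10 fits without 1 sample, and Zfp963 and Zfp935 were not called at E7.5 (adjusted p = 0.112 and 0.114).

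Imprinted genes showed small or mixed differences. Of 16 windows at genes with a maternally methylated promoter 3 were higher in the epiblast (1 without CAST/B6 ExE replicate 2) and 1 in the ExE (median 6.17, centred -10.3). Peg13 had 77.6% ± 5.82 and 57.0% ± 6.29 (20.5 points, adjusted p = 0.00342, no overlap), and Airn 87.6% ± 5.77 and 69.6% ± 13.1 (18.0 points, adjusted p = 0.0169, lost without CAST/B6 ExE replicate 2 at 11.6 points). The Snrpn call at 21.5 points (adjusted p = 0.0431) and the Inpp5f call at -11.7 points (adjusted p = 0.0489) were lost in 7 and 8 of the 10 fits without 1 sample, and Snrpn was at 14.3 points without CAST/B6 ExE replicate 2. The Snrpn window of 17153 bp and the windows of Peg13 and Airn are not germline differentially methylated regions as such, only the windows over the annotated starts. Of 6 windows at paternally methylated regions 1 was called, that of Rtl1 (18.2 points, adjusted p = 0.0141, lost without CAST/B6 ExE replicate 2 at 14.4 points), with a list median of 0.398 points (centred -16.1). The last list holds genes that the study names as imprinted independently of maternally inherited DNA methylation, and was chosen on samples of this series. Of its 5 windows 2 were higher in the epiblast, with a list median of 8.68 points (centred -7.80). They were Platr4 (83.9% and 51.0%, 32.8 points, limma adjusted p = 0.000759) and Platr20 (18.0 points, limma adjusted p = 0.00937).

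Genes of ribosomal proteins and histones had few calls. Ribosomal protein genes had 4 of 43 windows higher in the epiblast (2 without either B6/CAST ExE replicate) and 0 in the ExE (median 3.33, centred -13.2), among them Rpl11 (25.2 points) and Rps10 (19.1 points, lost without B6/CAST ExE replicate 1 at 16.2 points or CAST/B6 ExE replicate 2 at 16.0 points). Histone genes had 0 of 9 called in either direction by limma (median 1.33, centred -15.2), and 2 of 9 were called at E7.5. Lists of neighbouring tissues were included because dissected tissue could carry them. Genes of visceral endoderm, which wraps both tissues, had 8 of 23 windows higher in the epiblast and 0 in the ExE (median 9.74, centred -6.75), a share of 34.8% near the 38.7% of all promoter windows. Leaving out CAST/B6 epiblast replicate 3 or either B6/CAST ExE replicate gave 5, and leaving out CAST/B6 ExE replicate 2 gave 4. The largest differences called were at Alb (29.1 points), Tdh and Fgb (25.9 points). The Fgb call was lost in 7 of the 10 fits without 1 sample, with 15.1 points without CAST/B6 ExE replicate 2. Decidual genes had 3 of 9, or 33.3% beside the same 38.7% (median 0.769, centred -15.7), the prolactin-family genes Prl3c1 (34.6 points) and Prl8a2 (28.1 points) and Cryab, a small heat shock protein gene (20.9 points). Methylation of a gene start gives no measure of how many cells of a tissue were present, and a part of such cells in the results was not tested.

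The tissue difference was also compared between the crosses. With an interaction of tissue and cross in the limma fit, 0 of 250886 windows passed at an adjusted p under 0.05, with a lowest adjusted p of 0.784, and 15804 (6.30%) had an unadjusted p under 0.05. The mean difference was 18.2 points in B6/CAST and 14.8 points in CAST/B6. Each cross alone holds 3 samples against 2, for which the exact test cannot go below p = 0.2. In windows of 14 kb or more the difference was 31.1 points in B6/CAST and 26.6 points in CAST/B6, and under 1 kb it was -0.824 and -0.964 points, so both ends of the length gradient had the same sign in both crosses.

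The E7.5 samples allowed a look at the same loci in embryos that played no role in choosing them. At E7.5, 82.9% of 383556 windows were called higher in the epiblast and 1.30% in the ExE by limma. Each E6.5 window was matched to the E7.5 window with the largest overlap, whose borders differ. Of the 1664 windows higher in the ExE at E6.5, 1455 (87.4%) had the same sign at E7.5 and 1192 (71.6%) were called higher in the ExE, while 69 were called higher in the epiblast. Over all matched windows 4.12% had that sign and 1.22% were called. The median E7.5 difference of the 1664 was -12.2 points, less than the -17.2 points at E6.5 at which they were chosen. Of 149541 matched windows higher in the epiblast at E6.5, 96.7% were called in the same direction at E7.5, against 85.1% of all, and 22 were called in the other direction.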

How the data were processed

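DNA methylation was measured by PBAT in pools of tissue from hybrid embryos. Per the submitters' processing notes, reads were trimmed with Trim Galore 0.4.4 and aligned with Bismark 0.20.0 to GRCm38. The authors deposited percent methylation per window of 100 CpG sites, unscaled between samples and without coverage, so the depth behind a value is unknown and no interval was computed. Windows held a median of 59 CpG dinucleotides in GRCm38.

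Groups and crosses came from the sample labels. For autosomal windows with a value in all 10 samples, limma 3.58.1 (R 4.3.3) was fitted to the percentages with terms for tissue and cross, eBayes kept its defaults, and p-values were adjusted by the Benjamini-Hochberg method, with calls at 0.05. The fit was tested on simulated data. Tests of means over windows were two-sided exact permutations of the 210 arrangements of samples, for which the smallest p is 0.0095. Error values are SD over samples. Pools are separate, so p-values measure the spread between pools. E7.5 windows were fitted alike. Length classes, 1-Mb regions and genes (GENCODE annotation of GRCm38) were assigned by script with Python 3.11.15, numpy 2.4.6 and pandas 2.3.3. A promoter window is the one that covers the most upstream start of a protein-coding gene. A window counts as gene start, gene body or intergenic by its place relative to protein-coding genes.

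The samples, gene lists and tests were chosen with earlier results of these data known. Named were the 10 promoters and 5 windows with the largest difference in each direction among those called without overlap between samples (1 per 50 kb), up to 3 called members per list and direction, Elf5, Cdx2, Eomes, Tfap2c, Pou5f1, Nanog, Sox2, Dnmt3b and Dnmt3l, the methylation markers Plet1 and Cyba, and the 5 regions with the largest and the smallest difference. Alternatives were the logit scale, trended and robust eBayes, no cross term, a replicate block, subtraction of sample means, single crosses, a minimum of 20 points, every second window, fewer complete samples, the X chromosome, promoters as the mean of all windows within 500 bp of the start, weighting by length, medians, other region sizes and leaving out each sample. The other samples of the series were not used here. The window of 1 gene that the rule named is not reported here.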

Additional observations from a re-analysis of the deposited data

Results flagged for a closer look

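In 7 of 226 groups of samples at named windows, 1 sample lay far from the others of its tissue by Dixon's criterion at 95%, which chance alone meets in about 1 of 20 groups. In the epiblast these were Sec13, with 1 sample at 43.0% and the others at 78.6% to 95.1%, Pou5f1 at 10.0% against 1.79% to 4.55%, Cdh19 at 39.4% against 73.8% to 92.4%, and Sycp1 at 58.3% against 78.8% to 85.2%. In the ExE they were Dppa4 at 67.9% against 26.3% to 28.6%, Hoxb2 at 20.7% against 41.3% to 43.2%, and Airn at 50% against 74.8% to 77.5%. The single samples were B6/CAST epiblast replicate 1 at Sec13 and Cdh19, and B6/CAST epiblast replicate 3, which lacked values in 10.2% of windows, at Pou5f1 and Sycp1. They were CAST/B6 ExE replicate 1, which lacked values in 9.54% of windows, at Dppa4, and CAST/B6 ExE replicate 2 at Hoxb2 and Airn. The part of sparse reads in these values was not tested.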

How the results depend on the processing

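The excess of the epiblast in the mean, in the length gradient, by gene feature and in 1-Mb regions kept its direction with each sample left out, with 14.5 to 18.9 points for the mean, 26.6 to 33.3 points for windows of 14 kb or more against those under 1 kb, 7.86 to 10.1 points for intergenic against gene start windows, and in every such fit 2386 regions higher in the epiblast and 0 in the ExE. Leaving out 1 sample gave 120973 to 153463 windows higher in the epiblast and 1232 to 1731 in the ExE, 3962 to 5099 and 129 to 190 promoters, and 925 to 1062 and 29 to 38 promoters of the lists (1057 and 38 with all samples). Single crosses gave a mean difference of 18.15 and 14.8 points (exact permutation test, p = 0.2, the smallest possible), and 74267 and 375 windows, 2332 and 31 promoters and 625 and 8 list promoters in B6/CAST, or 60035 and 727, 2083 and 85, and 545 and 16 in CAST/B6 (epiblast and ExE in each pair). Subtracting sample means gave 15690 and 21728 windows, 534 and 3529 promoters, 251 and 242 list promoters, and 1193 and 715 regions. The calls of promoters higher in the ExE rose to 296 on the logit scale and 334 with trended and robust eBayes, which gave 66 for the lists. A minimum of 20 points left 96275 windows higher in the epiblast and 567 windows and 48 promoters higher in the ExE, every second window gave 74907 and 834, and regions of 500 kb gave 4261 higher in the epiblast.

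The replicate block could use 3 pairs that share a number within a cross and gave 53152 and 381 windows, 1985 and 38 promoters, and 548 and 8 list promoters. The same 6 samples without the block, chosen after seeing the data, gave 57095 and 467, 2023 and 46, and 560 and 11, so most of the fall came with fewer samples. The deviations of the pairs from their group means correlated at 0.0267, 0.0148 and -0.00208, so the numbers were not taken to pair the samples.

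Of 400 counts of single lists with 1 sample left out, 36 moved by over 1.5 times. Of 81 called windows among the 84 named ones, 8 calls were lost on the logit scale (Cfc1, Dkk1, Esrrb, Fgf4, Furin, Inpp5f, Rps10 and Snrpn), 8 without the cross term (Cfc1, Fgf4, Furin, Inpp5f, Platr20, Snrpn, Zfp935 and Zfp963) and 0 with trended and robust eBayes. Subtraction of sample means ended 23 calls, among them Alb, Tdh, Tet3, Dppa4, Zfp42, Peg13 and Mesp2, without a turn of sign. The block ended 28, among them Pou5f1, Dmtn, Gdf1 and Hoxb2, and the same samples without it 27. B6/CAST alone ended 25 and CAST/B6 alone 30.

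Among named windows the sign turned after subtraction of sample means at Furin (-1.60), Fgf4 (-0.0759), Cfc1 (-0.625), the first start of Elf5 (-7.42), Tfap2c (-16.0) and Cyba (-5.16), and in B6/CAST alone at Tfap2c (-2.25) and Cyba (-1.39). Tfap2c also turned without CAST/B6 epiblast replicate 1 (-0.619) or either CAST/B6 ExE replicate (-0.157 each), and reached 1.19 without B6/CAST ExE replicate 1. In windows of 1 to 2 kb the difference of the medians over windows was -1.27. The causes were not tested. A coverage minimum could not be run, because the table holds no coverage.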
